A study of Mus musculus with 18 samples.

Results

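Cytosolic ribosomal protein genes were followed in MC3T3-E1, a mouse line of pre-osteoblasts long kept in culture, grown on 3 kinds of PLLA membrane without or with daily ultrasound. PLLA is poly(L-lactic acid), a degradable polymer. The genes were chosen by name (Rpl or Rps followed by a number, or the stalk names Rplp0 to Rplp2; names of pseudogenes and of Rps6k kinases fall outside the rule) and by an FPKM of at least 1 in at least 3 libraries. FPKM is a fragment count scaled to gene length and library size. The name rule found 81 genes and 78 of them passed the level filter, of 11936 genes that passed it among 30452 in the table. By name, 30 of the 78 belong to the small subunit and 48 to the large subunit. Rpl32l and Rpl6l, which the rule includes, are annotated as processed pseudogenes. The 3 genes that did not pass were Rpl39l, with at most 0.202 FPKM in any library, Rps4l with at most 0.122 and Rpl3l with at most 0.0387, whereas the lowest gene that passed, Rpl32l, held 1.06 to 3.72 FPKM. All 78 therefore exceeded the limit in every library.

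The 6 groups of 3 libraries each were membranes of PLLA with zinc oxide and collagen (PLLA/ZnO@Col), of PLLA with zinc oxide (PLLA/ZnO) and of PLLA alone, each with ultrasound for 10 min every day (+US) and without it (-US). In all groups 20000 cells per well were grown for 5 days on Co60-sterilised discs of 15 mm, and polyadenylated RNA was sequenced. The labels do not say whether the 3 libraries of a group came from separate cultures, so the p-values measure the spread between these libraries, which may be technical. In bulk RNA, fewer cells of a type and less RNA per cell cannot be told apart.

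A ribosome joins a small subunit, which reads the messenger RNA, to a large subunit, which links amino acids, and each cytosolic ribosomal protein normally takes one place in one of them. Cells therefore make these proteins in balanced amounts. Their messenger RNAs are among the most abundant in a growing cell, and many of them begin with a run of pyrimidines, the terminal oligopyrimidine tract, through which mTORC1 signalling controls their translation. A few ribosomal proteins that are not built into ribosomes bind MDM2 and so stabilise p53. Osteoblasts rely on high translation capacity because they secrete large amounts of matrix protein.

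The start regions of some members are shown because the pyrimidine run is the sequence feature that the family is known for. RefSeq promoter windows of GRCm38.p6, from 250 bases before to 50 bases after an annotated start, were matched for 57 of the 78 members in 68 windows. Each line gives the longest pyrimidine run near the start in capitals, with up to 10 bases before it and 8 after it, read on the gene's strand. Rpl7a lies in the window chr2:26910557-26910856 on the plus strand, and its run of 21 bases begins at position -14 from the start. Rpl34 lies in chr3:130730288-130730587 on the minus strand with a run of 20, and Rpl31 in chr1:39367601-39367900 on the plus strand with a run of 13. Rpl5 lies in chr5:107900278-107900577 on the plus strand with a run of 9, and Rps15a in chr7:118116098-118116397 on the minus strand with a run of 10.
Rpl7a: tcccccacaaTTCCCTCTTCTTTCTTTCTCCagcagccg
Rpl34: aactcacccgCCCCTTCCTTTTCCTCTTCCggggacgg
Rpl31: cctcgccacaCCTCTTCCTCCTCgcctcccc
Rpl5: cctacagccaCTCTTTCTCacgtcgct
Rps15a: gcccggcccaCTCTCTTTCTgccatctt

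A run of at least 8 pyrimidines (C or T, on the gene's strand) within 50 bases of the start was present in 82.4% of the members' windows, against 35.7% of 32851 windows of all genes. Rpl23 was among the members without one, and its longest run there had 6 bases. Searched on both strands, GGGCGG was present in 58.8% of the members' windows and in 35.7% of all windows and CCGGAAGT in 16.2% against 3.89%. CACGTG was present in 11.8% against 7.15%, and TATAAA in 10.3% against 13.6%. These matches describe the letters of the windows only.

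Depth was 48307580 to 78039543 counts per library. The osteoblast markers Col1a1 (500 to 1165 FPKM), Spp1 (637 to 3609 FPKM) and Runx2 (6.22 to 9.54 FPKM) were present in every library. Sp7, Alpl, Bglap and Ibsp, also osteoblast markers, reached at most 0.746 FPKM. Bglap2, a second osteocalcin gene, reached 1.64 FPKM, with a median of 0.755. Libraries 2 and 3 of the PLLA/ZnO@Col -US group stood apart from the others in opposite directions, and so did library 3 of the PLLA/ZnO +US group. The summed level of 4 Y-linked genes (Ddx3y, Eif2s3y, Kdm5d and Uty) also differed among libraries of this single line: it was 0.185 to 0.386 FPKM in libraries 1 and 3 of PLLA/ZnO@Col -US and library 1 of PLLA/ZnO@Col +US, and 2.55 to 21.8 FPKM elsewhere. The list of 10 macrophage and osteoclast markers summed to 24.9 to 58.6 FPKM per library. Most of it was Lyz2 (5.00 to 26.8 FPKM), Cd14 (9.87 to 17.2 FPKM) and Ctsk (4.89 to 16.7 FPKM). Of the 10, 7 passed the level filter: these and Cd68, Csf1r, Tyrobp and Fcer1g. Ptprc, Adgre1 and Acp5 did not, and reached at most 0.0935, 0.0813 and 0.114 FPKM. For comparisons that include the libraries named above, the member median is given with and without them. Counts of members and the values of single genes and other lists mostly rest on all libraries.

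The members were expressed at far higher levels than most genes. Their mean FPKM over the 18 libraries had a median of 255, with a range of 2.39 to 2416, whereas the other genes past the filter had a median of 6.19. The highest were Rplp0 with a mean of 2416 FPKM, Rps2 with 1691, Rps15 with 1632, Rplp1 with 1289 and Rpl41 with 1270. Rplp0 is the base of the stalk that calls elongation factors to the ribosome, Rplp1 is one of the acidic proteins bound to it, Rps2 lies near the entry of the messenger channel, and Rpl41 is the smallest ribosomal protein. The lowest after Rpl32l were Rpl21 with 21.9 FPKM, Rps19 with 42.6, Rpl6l with 46.5 and Rpl22 with 51.0. Rplp0 alone held 8.40% of all member counts, the 5 members with the most counts held 23.9% and the 20 with the most held 54.8%.

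The order of levels depends on the length by which counts are divided. The length implied by the deposited counts and FPKM was 1.16 to 11.4 times that of the principal transcript, with a median of 2.72 times. Per kilobase of the principal transcript, Rpl41 was first with 3909 CPM per kilobase (CPM, counts scaled to the library total), before Rps2 with 3571 and Rplp0 with 3400. Rps18 was 8 in that order and 32 in the order of FPKM. Comparisons between conditions are within a gene and do not use this length.

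Each member varied among libraries by a median of 2.61 times from its lowest to its highest library, and most of this variation was shared. The 78 members together took 5.06%, 5.91% and 5.33% of counts in PLLA/ZnO@Col +US, against 4.93%, 3.28% and 8.13% in PLLA/ZnO@Col -US. They took 5.70%, 5.32% and 7.61% in PLLA/ZnO +US and 5.91%, 6.44% and 5.25% in PLLA/ZnO -US. They took 5.32%, 4.72% and 5.74% in PLLA +US and 4.45%, 5.15% and 4.94% in PLLA -US. The highest and the lowest share, 2.48 times apart, thus came from the same group, PLLA/ZnO@Col -US.

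**Figure D1:**
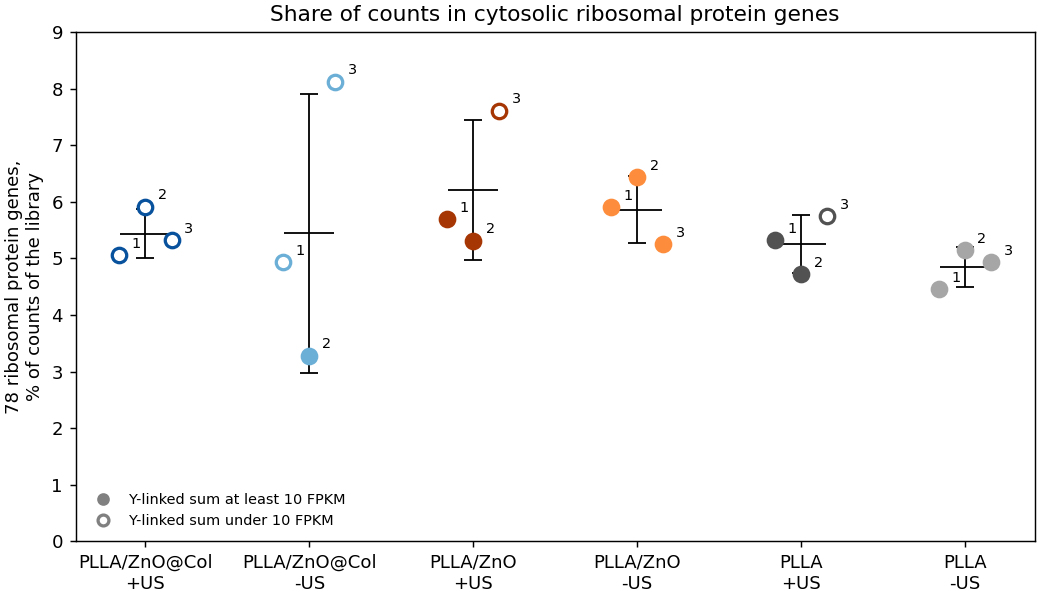
Share of each library's counts that fell in the 78 ribosomal protein genes, in percent (vertical axis), for the 6 groups (horizontal axis). Points are libraries with their replicate number, open where the summed Y-linked level was under 10 FPKM, and black bars give the mean and SD of 3 libraries. PLLA/ZnO@Col -US spans 3.28% to 8.13%, wider than any other group, and the 3 PLLA/ZnO -US libraries lie above the 3 PLLA -US libraries.

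Library 2 of PLLA/ZnO@Col -US was the lowest of all 18 for 69 of 78 members, and none of the 78 was above its own median there. Library 3 of the same group was the highest for 44 members, library 3 of PLLA/ZnO +US for 22 and library 2 of PLLA/ZnO -US for 10. On the log2 scale the median member deviated by -0.73, 0.65 and 0.49 in the first 3 of these libraries. Other lists deviated in the same libraries: nuclear genes of oxidative phosphorylation by -0.55, 0.65 and 0.41, and mitochondrial ribosomal proteins by -0.35, 0.46 and 0.39. The transcripts of the mitochondrial genome deviated by 0.78, -0.16 and -0.66, and took 4.54%, 1.83% and 1.57% of counts. The summed level of 7 fibroblast markers, most of it S100a4, was 466 FPKM in library 2 and 1284 FPKM in library 3 of PLLA/ZnO@Col -US, and 649 to 1017 FPKM in the other 16. The part of these values in the members' levels was not tested.

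**Figure D2:**
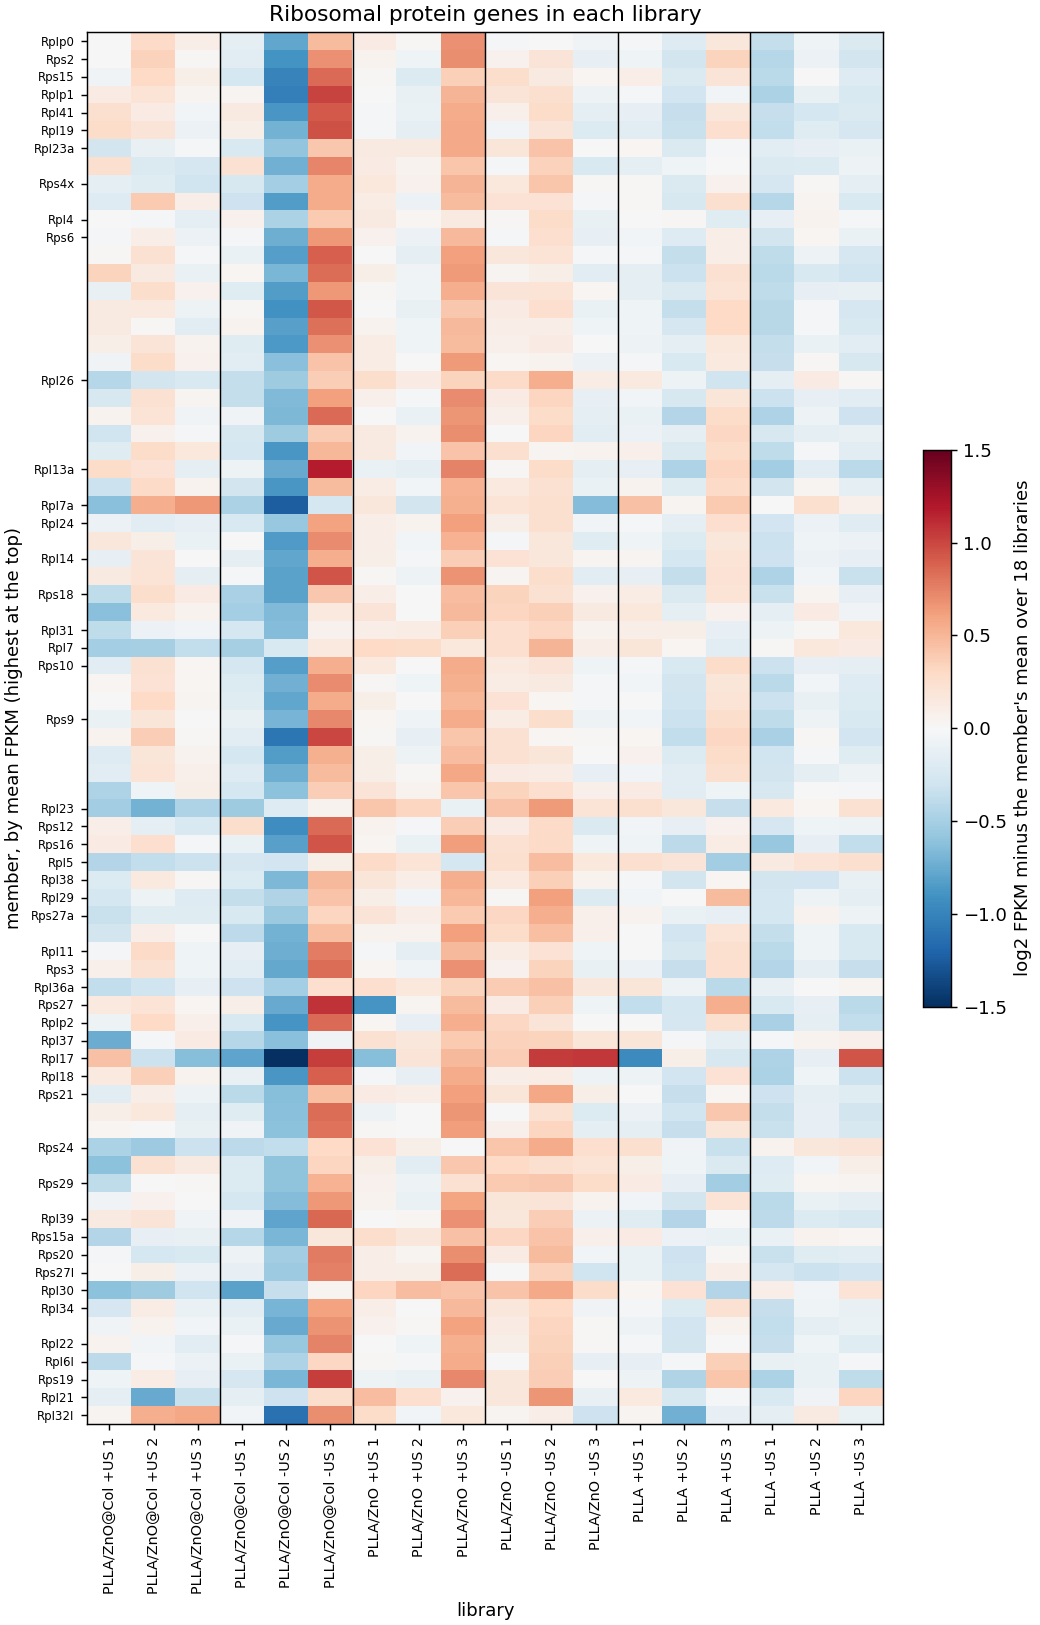
Log2 FPKM of each of the 78 members (one line each, highest mean level at the top, members named in the text labelled) in each of the 18 libraries (horizontal axis), minus the member's mean over all libraries. Red is above and blue below that mean. Library 2 of PLLA/ZnO@Col -US is blue for nearly all members, and library 3 of that group and library 3 of PLLA/ZnO +US are red for most.

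Zinc oxide without ultrasound was the comparison with the most uniform difference in the members. Their median log2 fold change, PLLA/ZnO -US over PLLA -US, was 0.33 (1.26-fold), against -0.01 for all genes. Of the 78 members 77 were higher, where 48.9% of all genes were higher, and for 44 members the 3 PLLA/ZnO libraries lay above the 3 PLLA libraries without overlap, where that held for 7.61% of all genes. None was lower without overlap, where 9.95% of genes were. The small subunit had a median of 0.34 (30 of 30 higher) and the large subunit of 0.32 (47 of 48 higher). Members move together within a library, so these counts are not independent observations. The pooled SD of the member median between libraries of a group was 0.317, about the size of the difference. It pools all 6 groups, among them PLLA/ZnO@Col -US with an SD of 0.688, which is not in this comparison. The SD was 0.142 in PLLA/ZnO -US and 0.111 in PLLA -US (n = 3 each).

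No member passed the test. With edgeR's quasi-likelihood test and Benjamini-Hochberg adjustment at 0.05 over all genes, 0% of genes were called, 1.19% had an unadjusted p under 0.05 and the smallest adjusted p of any gene was 0.861. DESeq2 called 1 gene (0.00838%), which was not a member. Rps27a and Rps21 were the 2 members with an unadjusted p under 0.05.

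The members with the largest differences came from both subunits. Rps21, a small protein of the small subunit whose transcript shares no stretch of 100 bases with another gene, had 122, 160 and 113 FPKM in PLLA/ZnO -US and 86.1, 97.6 and 94.1 FPKM in PLLA -US. All 3 PLLA/ZnO libraries were above the PLLA libraries, with a log2 fold change of 0.52 (SE 0.23, edgeR adjusted p = 1). Rps16, a small-subunit protein near the decoding site, had 234, 245 and 191 FPKM in PLLA/ZnO -US and 135, 183 and 154 FPKM in PLLA -US, again without overlap, with a log2 fold change of 0.51 (SE 0.32, edgeR adjusted p = 1). Rps27a, which is made as a fusion with ubiquitin, averaged 214 ± 34.8 FPKM in PLLA/ZnO -US and 161 ± 17.7 FPKM in PLLA -US (SD, n = 3 each), a log2 fold change of 0.43.

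The stalk proteins were also higher with zinc oxide. Rplp0 had 2333, 2359 and 2274 FPKM in PLLA/ZnO -US and 1845, 2257 and 2029 FPKM in PLLA -US, without overlap, with a log2 fold change of 0.20 (SE 0.25). Rplp1 and Rplp2, its acidic partners, did not overlap either, with log2 fold changes of 0.40 and 0.51. At the other end, Rpl7a had 387, 396 and 214 FPKM in PLLA/ZnO -US and 333, 398 and 355 FPKM in PLLA -US, so that the groups overlapped, with a log2 fold change of -0.11. Rpl5, which carries a small ribosomal RNA into the large subunit and can bind MDM2, was at 0.11.

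Members with known roles of their own followed the same direction. Rps19, the gene most often mutated in Diamond-Blackfan anaemia in humans, averaged 46.2 ± 6.04 FPKM in PLLA/ZnO -US and 32.8 ± 4.62 FPKM in PLLA -US (SD, n = 3 each), without overlap (log2 fold change 0.51, SE 0.35, edgeR adjusted p = 1). Rpl38, which mouse embryos need to translate Hox messages, had 204, 236 and 192 FPKM in PLLA/ZnO -US and 152, 151 and 170 FPKM in PLLA -US, also without overlap (0.43, SE 0.22). Rps6 had 638, 768 and 591 FPKM in PLLA/ZnO -US and 534, 661 and 601 FPKM in PLLA -US, with overlap (0.16, SE 0.25). Rps3, which lines the messenger entry channel, was at 0.43, Rpl11 at 0.33 and Rpl26 at 0.33.

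The difference was of similar size in members whose reads are easier to assign. Of the 78, 12 had at least 90% of the 100-base stretches of their principal transcript in no other annotated transcript, and their median was 0.35 with all 12 higher. The lowest of the 12 was the processed pseudogene Rpl32l at 0.0005, with means of 2.23 FPKM in PLLA/ZnO -US and 2.25 FPKM in PLLA -US. The 14 members with under 25% of unique stretches had a median of 0.30, again with all 14 higher. All 6 libraries of this comparison held the Y-linked transcripts at 10.5 to 21.8 FPKM. Leaving out each of the 6 libraries in turn gave medians of 0.26 to 0.40.

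The members were not alone in this difference. Of the other ribosomal proteins (such as Rpsa and Fau) 9 of 9 were higher, with a median log2 fold change of 0.28, and of nuclear oxidative phosphorylation genes 44 of 44, with a median of 0.35. Mitochondrial ribosomal proteins had a median of 0.19 (75 of 82 higher) and elongation factors with other targets of the terminal pyrimidine tract 0.15 (17 of 18 higher). Initiation factors were at 0.00 (14 of 28 higher), ribosome biogenesis factors at -0.05 (16 of 46 higher) and RNA polymerase I factors at -0.02 (9 of 20 higher). Genes of mTORC1 and translation control were at -0.02 (13 of 26 higher), the MYC and MAX network at -0.02 (2 of 9 higher) and p53 and nucleolar stress genes at -0.05 (6 of 13 higher). No gene of these lists passed the test. By implied gene length, genes under 750 bases had a median of 0.19, those of 750 to 1500 bases 0.23, those of 1500 to 3000 bases 0.12 and longer genes -0.06; the part of length in the members' values was not tested. The macrophage and osteoclast markers had a median of -0.47 (1 of 7 higher) and summed to 24.9 to 49.8 FPKM in PLLA/ZnO -US and 47.8 to 50.2 FPKM in PLLA -US, and their part was not tested either.

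**Figure D3:**
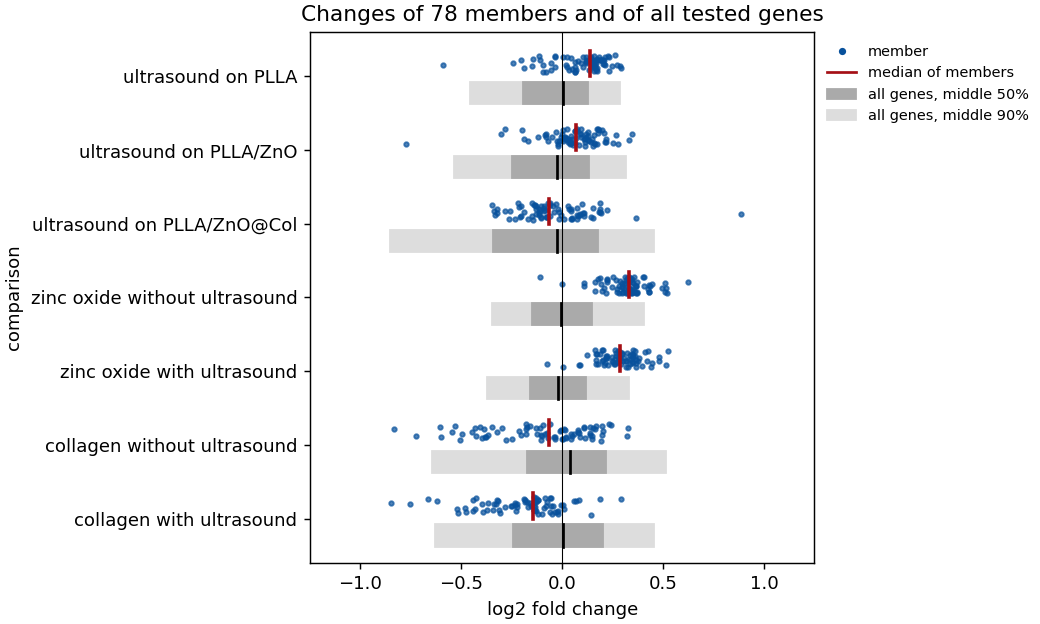
Log2 fold changes (horizontal axis) in 7 comparisons (vertical axis). Blue points are the 78 members and the red line is their median, while grey boxes give the middle 50% and 90% of all 11936 genes with their median in black. The member median is 0.33 and 0.28 for zinc oxide without and with ultrasound, and lies between -0.15 and 0.14 in the other comparisons.

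Zinc oxide with ultrasound gave a similar median that rested more on one library. The median member log2 fold change, PLLA/ZnO +US over PLLA +US, was 0.28 (1.22-fold), against -0.02 for all genes, and 77 of 78 members were higher, where 46.2% of all genes were. The groups did not overlap for 10 members, all higher, where 2.03% of genes were higher and 5.91% lower without overlap. Without library 3 of PLLA/ZnO +US the median was 0.09. With edgeR 0% of genes passed the adjusted threshold, 1.27% had an unadjusted p under 0.05, including 1 member, and DESeq2 called 2 genes (0.0168%), neither a member.

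Rpl30, a large-subunit protein that in mammals also binds the signals for selenocysteine insertion, was the member with an unadjusted p under 0.05. It had 95.2, 105 and 103 FPKM in PLLA/ZnO +US and 77.6, 88.6 and 56.3 FPKM in PLLA +US, and the groups did not overlap (log2 fold change 0.48, SE 0.20, edgeR adjusted p = 1). Rps27l had 85.2, 84.7 and 142 FPKM in PLLA/ZnO +US and 74.0, 64.8 and 85.4 FPKM in PLLA +US, with overlap and with its highest value in library 3 (log2 fold change 0.52, SE 0.27). Rpl39, which lines the tunnel by which new proteins leave, was at 0.51 and Rps20 at 0.48. The lowest were Rpl7a at -0.08, Rps27 at 0.00 and Rps15 at 0.08. Among the related lists, elongation factors and other pyrimidine-tract targets had a median of 0.29 (17 of 18 higher). Among them Tpt1, which encodes an abundant growth-related protein, averaged 649 ± 52.4 FPKM in PLLA/ZnO +US and 505 ± 39.8 FPKM in PLLA +US (SD, n = 3 each), a log2 fold change of 0.40. Nuclear oxidative phosphorylation genes had a median of 0.25 (44 of 44 higher). The macrophage and osteoclast markers were at 0.00 (4 of 7 higher). The groups of this comparison are not those of the comparison without ultrasound.

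Collagen with ultrasound gave lower levels of a subset of members. The median log2 fold change, PLLA/ZnO@Col +US over PLLA/ZnO +US, was -0.15 (0.903-fold), against 0.00 for all genes, and 70 of 78 members were lower, where 49.6% of all genes were. The groups did not overlap for 19 members, all lower, where 5.08% of genes were lower and 10.2% higher without overlap. Of the 19, 13 belong to the large subunit, as do 48 of the 78 members. They were Rpl30, Rpl23, Rpl7, Rpl21, Rpl26, Rpl36a, Rpl5, Rpl37, Rpl23a, Rpl24, Rpl29, Rpl31 and Rpl4 of the large subunit, and Rps24, Rps15a, Rps20, Rps27a, Rps4x and Rps21 of the small subunit. The member median was 0.02 without library 3 of PLLA/ZnO +US, -0.23 without library 1 and -0.26 without library 2 of that group, and -0.23 without library 2 of PLLA/ZnO@Col +US. This comparison shares its PLLA/ZnO +US libraries with the zinc oxide comparison with ultrasound.

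With edgeR no gene passed the adjusted threshold (0%), while 9.43% of genes and 9 members had an unadjusted p under 0.05. DESeq2 called 0.394% of genes, 47 in number, and 2 members, Rpl7 and Rpl30. Rpl7, a protein of the large subunit, had 196, 198 and 216 FPKM in PLLA/ZnO@Col +US and 343, 337 and 310 FPKM in PLLA/ZnO +US. The groups were well apart, with a log2 fold change of -0.66 (SE 0.16, edgeR adjusted p = 0.339) and a DESeq2 adjusted p of 0.0202 at -0.69. Rpl30 had 49.6, 52.6 and 61.8 FPKM in PLLA/ZnO@Col +US and 95.2, 105 and 103 FPKM in PLLA/ZnO +US, with a log2 fold change of -0.85 (SE 0.20, edgeR adjusted p = 0.339) and a DESeq2 adjusted p of 0.0291 at -0.88. Both genes kept values below 0 in all alternatives run.

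Proteins that can bind MDM2 did not share one value. Rpl23 had 150.5, 132 and 156 FPKM in PLLA/ZnO@Col +US and 287, 269 and 201 FPKM in PLLA/ZnO +US, without overlap (log2 fold change -0.75, SE 0.20, edgeR adjusted p = 0.403). Rpl5 had 151, 157 and 163 FPKM in PLLA/ZnO@Col +US and 248, 234 and 170 FPKM in PLLA/ZnO +US, a log2 fold change of -0.44, also without overlap. Rpl11, the partner of Rpl5 in MDM2 binding, had 140, 172 and 135 FPKM in PLLA/ZnO@Col +US and 140, 127 and 199 FPKM in PLLA/ZnO +US, with overlap and a log2 fold change of -0.02. Rpl26, which in human cells binds the p53 messenger RNA, was at -0.52. The stalk proteins Rplp0, Rplp1 and Rplp2 were at -0.14, 0.01 and -0.03. The highest members were Rpl32l at 0.29, Rps27 at 0.19 and Rpl7a at 0.14.

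Some related lists had medians below 0 in the same comparison and others above it. Ribosomal proteins outside the name rule had a median of -0.13 with 0 of 9 higher, elongation factors and other pyrimidine-tract targets -0.14 with 1 of 18 higher, and nuclear oxidative phosphorylation genes -0.15 with 9 of 44 higher. Transcripts of the mitochondrial genome had a median of -0.45 with 0 of 37 higher. Initiation factors were at -0.08 with 11 of 28 higher, ribosome biogenesis factors at -0.06 with 20 of 46 higher and mitochondrial ribosomal proteins at -0.06 with 30 of 82 higher. On the other side of 0, p53 and nucleolar stress genes had a median of 0.18 with 10 of 13 higher, and genes of mTORC1 and translation control 0.15 with 17 of 26 higher. The MYC and MAX network was at 0.09 with 7 of 9 higher and RNA polymerase I factors at 0.07 with 12 of 20 higher. The macrophage and osteoclast list had a median of -0.32 with 0 of 7 higher, and summed to 25.03 to 55.4 FPKM in PLLA/ZnO@Col +US and 28.7 to 47.5 FPKM in PLLA/ZnO +US; its part in the members' values was not tested. No gene of these lists passed the edgeR test.

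Collagen without ultrasound could not be read as one difference because its 3 libraries disagreed. The median member log2 fold change, PLLA/ZnO@Col -US over PLLA/ZnO -US, was -0.07 (0.954-fold), against 0.04 for all genes, and 46 of 78 members were lower, where 45% of all genes were. It was -0.51 without library 3 of PLLA/ZnO@Col -US and 0.22 without library 2, and between -0.12 and 0.00 without any other library. Of the members 4 were lower without overlap (Rpl30, Rpl23, Rpl37 and Rpl5), where that held for 6.31% of genes. This comparison shares the PLLA/ZnO -US libraries with the zinc oxide comparison without ultrasound.

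With edgeR no gene passed the adjusted threshold (0%), and 12.9% of genes and 9 members had an unadjusted p under 0.05. The smallest adjusted p was 0.0673 for any gene and 0.141 for a member. DESeq2 called 3.41% of genes, 407 in number, of which 1 was a member, Rpl30. Rpl30 had 43.5, 59.7 and 78.5 FPKM in PLLA/ZnO@Col -US and 102, 113 and 91.8 FPKM in PLLA/ZnO -US, so that all 3 collagen libraries were lower (log2 fold change -0.73, SE 0.20, edgeR adjusted p = 0.141; DESeq2 -0.71, adjusted p = 0.0473). Rpl23 had 148, 189 and 223 FPKM in PLLA/ZnO@Col -US and 289, 336 and 248 FPKM in PLLA/ZnO -US (log2 fold change -0.60, SE 0.20, edgeR adjusted p = 0.209). Rpl37 was also at -0.60. The highest were Rpl13a, which in human monocytes can leave the ribosome to silence inflammatory messages, at 0.33, and Rpl19 at 0.32.

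Rpl30 was thus lower in each of the 6 collagen libraries (43.5 to 78.5 FPKM) than in any PLLA/ZnO library (91.8 to 113 FPKM). Libraries 1 and 3 of PLLA +US, without collagen, also lay within the collagen range. Set against the median member of the same library and its own mean, Rpl30 was at 0.38 in library 2 of PLLA/ZnO@Col -US. It was at -0.63 to -0.26 in the other collagen libraries and at -0.52 in library 3 of PLLA +US. For collagen without ultrasound, ribosome biogenesis factors had a median of 0.25 (33 of 46 higher), and p53 and nucleolar stress genes of 0.29 (10 of 13 higher). The macrophage and osteoclast markers had a median of 0.20 (7 of 7 higher) and summed to 38.4 to 58.6 FPKM in PLLA/ZnO@Col -US and 24.9 to 49.8 FPKM in PLLA/ZnO -US; their part in the members' values was not tested. Among the biogenesis factors Nop2, a methyltransferase of ribosomal RNA, averaged 50.5 ± 7.55 FPKM in PLLA/ZnO@Col -US, against 34.4 ± 3.99 FPKM in PLLA/ZnO -US (SD, n = 3 each), a log2 fold change of 0.59 (SE 0.15, edgeR adjusted p = 0.117).

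Leaving out the 3 libraries with almost no Y-linked transcripts, chosen after seeing the data, left 1 library of PLLA/ZnO@Col -US, the one with the lowest member share. The member median was then -0.89 for collagen without ultrasound, with 11 members called and 1.39% of all genes, and 0.81 for ultrasound on PLLA/ZnO@Col, with 2 members called (Rpl7a and Rps15) and 0.93% of all genes. The lone library is assumed to vary like the other groups in these fits. For collagen with ultrasound the median was -0.19 and no gene was called.

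Daily ultrasound itself went with small differences of the members on each membrane. The median log2 fold change, +US over -US, was 0.14 on PLLA (62 of 78 higher, where 50.5% of all genes were), 0.07 on PLLA/ZnO (59 of 78, where 46.3% were) and -0.07 on PLLA/ZnO@Col (49 of 78 lower, where 52.9% were). The all-gene medians were 0.00, -0.03 and -0.03. edgeR called 0% of genes in each, and 0.436%, 3.24% and 8.18% of genes had an unadjusted p under 0.05, with 0, 0 and 1 member among them. DESeq2 called 0 genes (0%), 5 (0.0419%) and 3 (0.0251%), none a member. The macrophage and osteoclast markers had medians of -0.57 (2 of 7 higher), -0.04 (3 of 7) and -0.62 (0 of 7) on the 3 membranes, and their part in the members' values was not tested.

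Single libraries set these medians. On PLLA the median was 0.07 without library 3 of PLLA +US, 0.08 without library 1 of PLLA -US and 0.22 without library 2 of PLLA +US. On PLLA/ZnO it was -0.10 without library 3 of PLLA/ZnO +US, -0.01 without library 3 of PLLA/ZnO -US, and 0.12 to 0.18 without either of the other +US libraries or library 2 of PLLA/ZnO -US. On PLLA/ZnO@Col it was 0.44 without library 3 and -0.35 without library 2 of PLLA/ZnO@Col -US, between -0.12 and 0.00 without any other library, and 0.07 by limma on log2(FPKM + 1).

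Few members kept their ultrasound and control libraries apart. On PLLA it was Rpl29, with 167, 172 and 238 FPKM in PLLA +US and 143, 163 and 155 FPKM in PLLA -US (log2 fold change 0.28, SE 0.23), where 4.99% of all genes were higher without overlap. On PLLA/ZnO it was Rplp0, with 2577, 2401 and 3788 FPKM in PLLA/ZnO +US and 2333, 2359 and 2274 FPKM in PLLA/ZnO -US (0.33), where 6.82% of genes were higher without overlap. Rps24 and Rps29, both of the small subunit, were lower there without overlap at -0.30 and -0.29, where that held for 4.62% of genes. On PLLA/ZnO@Col, Rpl5 was lower without overlap at -0.23, where that held for 5.74% of genes.

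Rpl7a had the largest ultrasound difference of any member on the collagen membrane. It had 217, 488 and 529 FPKM in PLLA/ZnO@Col +US and 241, 143 and 279 FPKM in PLLA/ZnO@Col -US, so that library 1 with ultrasound lay inside the range without it. The log2 fold change was 0.88 (SE 0.33, edgeR adjusted p = 0.525), and 0.50 (edgeR adjusted p = 0.521) when its counts were summed with those of its named pseudogenes. The difference of the ultrasound change between membranes had member medians of -0.02 (PLLA/ZnO minus PLLA), -0.12 (PLLA/ZnO@Col minus PLLA/ZnO) and -0.13 (PLLA/ZnO@Col minus PLLA). No gene passed edgeR's test of any of the 3 differences, and no member had an unadjusted p under 0.05, where 0.385%, 2.2% and 1.22% of all genes had one.

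Set against the median member of the same library, most members kept nearly constant proportions. The SD over 18 libraries of this relative log2 level had a median of 0.157, against 0.328 for the members' log2 level itself. The steadiest were Rpl34 with 0.0581, Rpl14 with 0.0810 and Rps6 with 0.0821, the protein phosphorylated by S6 kinases under mTORC1. The least steady were Rpl17 with 0.639, Rpl23 with 0.421, Rpl7a with 0.412, Rpl30 with 0.394 and Rpl5 with 0.372. These members were picked for their spread, so the values describe them.

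The relative levels were also set out by the level of Y-linked transcripts, a division of the libraries made after seeing the data. In 7 libraries (all 3 of PLLA/ZnO@Col +US, libraries 1 and 3 of PLLA/ZnO@Col -US, and library 3 each of PLLA/ZnO +US and PLLA +US) the Y-linked sum was 0.185 to 6.10 FPKM, and in the other 11 it was 10.5 to 21.8 FPKM. The relative level of Rpl23 was -0.75 to -0.33 in the 7 libraries and 0.03 to 0.54 in the 11. That of Rpl7 was -0.54 to -0.25 in the 7 and 0.07 to 0.50 in the 11. Rpl5, Rps24, Rpl36a, Rpl26, Rps15a, Rpl31 and Rps27a were also lower in the 7 without overlap. This held for 9 of 78 members (11.5%), while 4 members (5.13%), Rpl41, Rpl18, Rps2 and Rps9, were higher. Some margins were small: Rpl31 was at most 0.002 in the 7 and at least 0.005 in the 11, and Rps27a at most -0.05 and at least -0.03. Rpl41 was at least 0.004 in the 7 and at most -0.007 in the 11, and Rps9 at least 0.039 and at most 0.029. Of all tested genes, set against the same median member, 5.04% were lower and 0.117% higher in the 7 without overlap. The median member comes from the 78 members themselves. Setting genes against it takes out the members' shared variation and adds that variation to genes that do not share it. The shares of members and of all genes can therefore not be compared on this measure. Rpl30 overlapped between them by a small margin, with -0.63 to -0.04 in the 7 and -0.05 to 0.46 in the 11. In log2 CPM, without the division by the median member, none of the 78 members was apart in this way, where 8.19% of all genes were lower and 4.79% higher in the 7. All PLLA/ZnO@Col +US libraries were among the 7 and all libraries of PLLA/ZnO -US and PLLA -US among the 11. In the comparison of collagen with ultrasound, library 3 of PLLA/ZnO +US was also among the 7, with a Y-linked sum of 2.55 FPKM, whereas libraries 1 and 2 had 16.1 and 16.7 FPKM. That library 3 had 103 FPKM of Rpl30, 310 of Rpl7 and 201 of Rpl23, each above the 3 PLLA/ZnO@Col +US libraries. Its median member deviated by 0.49 on the log2 scale. Its relative levels were -0.04 for Rpl30, -0.32 for Rpl7 and -0.57 for Rpl23. In the 3 PLLA/ZnO@Col +US libraries these were -0.58 to -0.26, -0.54 to -0.32 and -0.75 to -0.33. Library 2 of PLLA/ZnO@Col -US, a collagen library, had a Y-linked sum of 21.4 FPKM. The part of the Y-linked level in the collagen values was not tested.

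**Figure D4:**
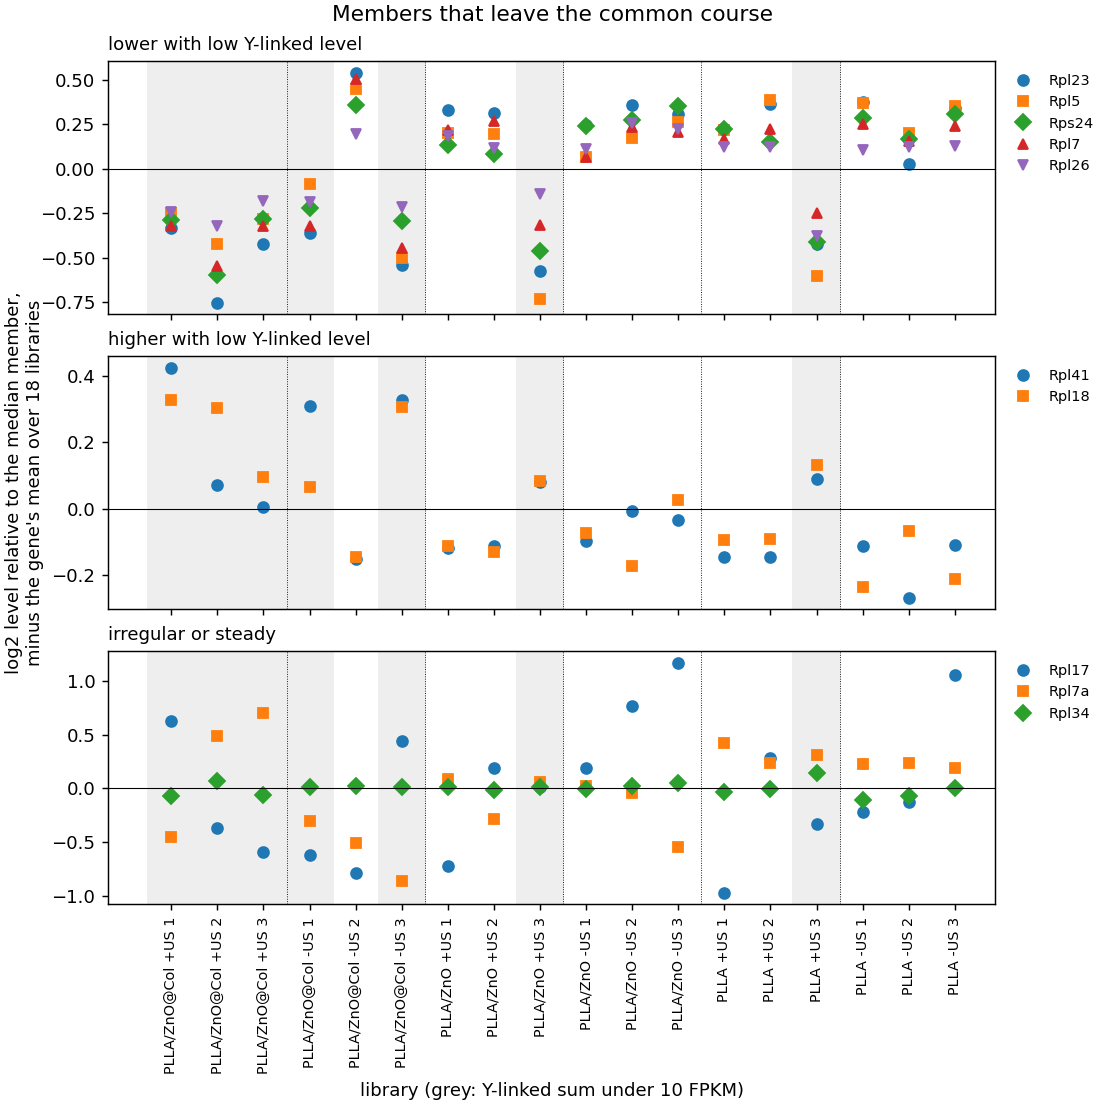
Log2 level of 10 members relative to the median member of the same library, minus the gene's own mean (vertical axis), in each of the 18 libraries (horizontal axis). Grey bands mark the 7 libraries with a Y-linked sum under 10 FPKM, where Rpl23, Rpl5, Rps24, Rpl7 and Rpl26 lie low and Rpl41 and Rpl18 high. Rpl17 and Rpl7a scatter within and outside the bands, and Rpl34 stays near 0.

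Many ribosomal protein genes have processed pseudogenes with nearly the same sequence, and the counting of shared reads is not given in the sources used here, so levels of these members are uncertain. Of the 78, 55 had a total of 226 named pseudogenes in the table, and the pseudogenes held 6.11 counts for every 100 member counts. For 11 members they held over 10% of the family's counts, with the largest shares for Rpl17 (72.5%), Rpl21 (72.1%), Rpl14 (40.3%), Rps10 (32.7%), Rps12 (32.6%) and Rpl7a (27.9%). Rpl21 averaged 21.9 FPKM, whereas its pseudogene Rpl21-ps15 was listed at a mean of 376 FPKM. The 480 coding bases of Rpl21 differ from Rpl21-ps15 at 3 positions. The stretch with all 3 differences, bases 313 to 432 of the coding sequence in GENCODE M21 on GRCm38, is shown with the differing bases in capitals. Rpl21 lies at chr5:146832890-146837032 on the plus strand and Rpl21-ps15 at chrX:151215167-151215649 on the minus strand.
Rpl21: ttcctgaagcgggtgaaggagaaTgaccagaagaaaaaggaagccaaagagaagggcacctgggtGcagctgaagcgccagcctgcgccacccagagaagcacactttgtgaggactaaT
Rpl21-ps15: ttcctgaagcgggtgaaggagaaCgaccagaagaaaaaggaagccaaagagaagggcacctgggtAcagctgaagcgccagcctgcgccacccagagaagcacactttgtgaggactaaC

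Rpl17, a protein at the exit tunnel of the large subunit, had the log2 fold change of largest size among members in 4 comparisons, and in most libraries its level ran against that of a pseudogene. It was at -0.59 for ultrasound on PLLA, -0.78 for ultrasound on PLLA/ZnO, 0.62 for zinc oxide without ultrasound and -0.84 for collagen without ultrasound. Library 1 of PLLA +US listed 51.0 FPKM of Rpl17 and 471 FPKM of Rpl17-ps10, and library 3 of PLLA -US 190 FPKM of Rpl17 and 152 FPKM of Rpl17-ps10. Both were high in library 3 of PLLA/ZnO@Col -US, with 202 and 433 FPKM. Summed with its 8 named pseudogenes, Rpl17 varied among libraries by 2.57 times instead of 6.01 times, and its relative SD was 0.0884 in place of 0.639. The log2 fold changes of the sum were -0.00 for ultrasound on PLLA, -0.00 for ultrasound on PLLA/ZnO, 0.18 for zinc oxide without ultrasound and -0.01 for collagen without ultrasound. For Rpl7a the sum brought the relative SD to 0.233, and for the whole set the medians of the 7 comparisons moved by little, with 0.32 for zinc oxide without ultrasound and -0.15 for collagen with ultrasound.

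**Figure D5:**
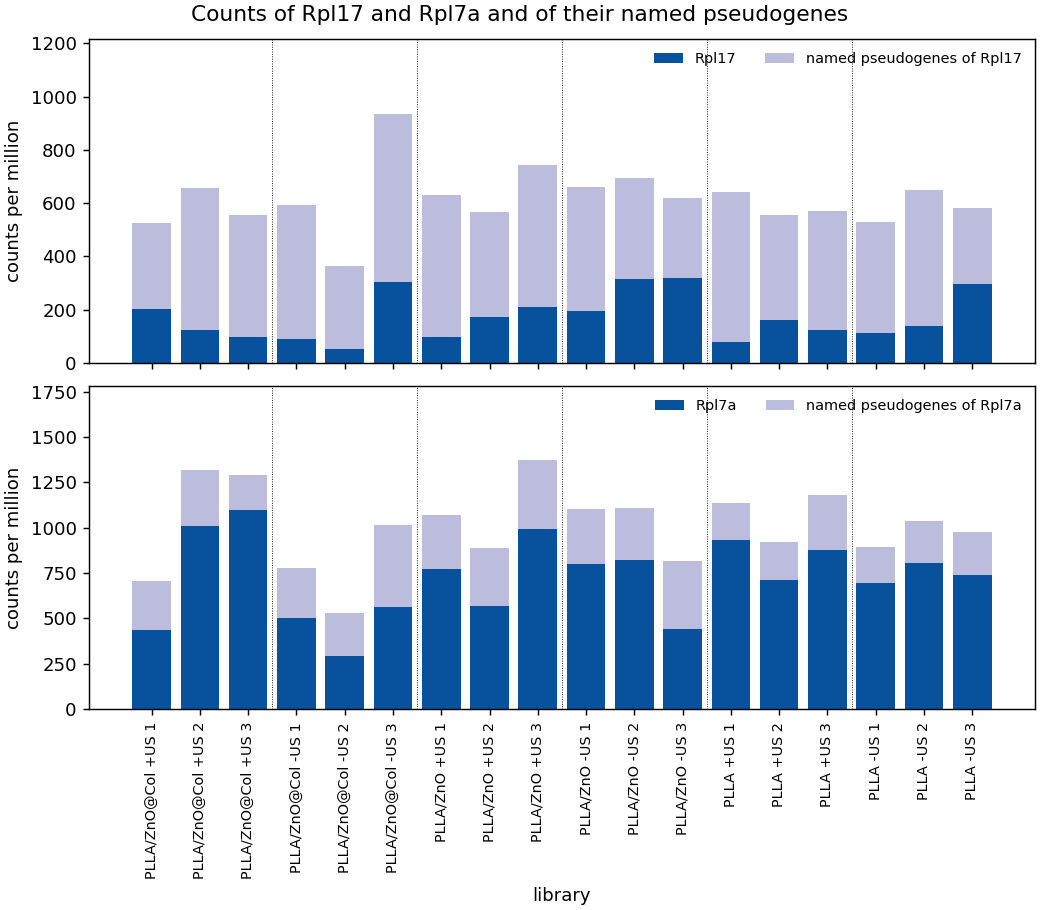
Counts scaled to the library total (CPM) of Rpl17 (top) and Rpl7a (bottom) in dark blue and of their named pseudogenes stacked in light violet (vertical axis), in each of the 18 libraries (horizontal axis). For Rpl17 the dark part varies 6.01 times between libraries and the whole bar 2.57 times.

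The named pseudogenes past the filter, 128 in number, had medians near those of the members in some comparisons and not in others. Of them 113 were higher for zinc oxide without ultrasound, with a median log2 fold change of 0.28, and 115 for zinc oxide with ultrasound, with a median of 0.24. For collagen 33 were higher with ultrasound (median -0.10) and 64 without it (median -0.00). For ultrasound on PLLA 65 were higher, with a median of 0.01 where the members' was 0.14, and on PLLA/ZnO 50, with a median of -0.06 where the members' was 0.07. On PLLA/ZnO@Col 36 were higher, with a median of -0.14. None passed the edgeR test in any of the 7.

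Paralogs can take the place of a ribosomal protein, and the name rule holds a pair of protein-coding paralogs that were both well expressed. Rps27 (chr3:90212522-90213648, minus strand) and Rps27l (chr9:66946086-66949516, plus strand), a p53 target in human cells, encode nearly the same small-subunit protein, and their coding sequences of 252 bases are identical at 76.2% of positions. They are shown whole because these 60 differences let reads be told apart between the paralogs; capitals mark them. Rps27 nevertheless shared stretches of 100 bases with other genes at nearly every position, with 1.63% unique, whereas Rps27l had 100% unique.
Rps27: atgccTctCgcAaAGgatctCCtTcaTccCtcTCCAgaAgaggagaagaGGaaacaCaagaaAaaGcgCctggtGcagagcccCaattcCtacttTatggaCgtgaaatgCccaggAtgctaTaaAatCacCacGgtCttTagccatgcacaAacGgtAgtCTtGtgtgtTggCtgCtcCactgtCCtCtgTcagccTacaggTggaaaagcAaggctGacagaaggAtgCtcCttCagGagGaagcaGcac
Rps27l: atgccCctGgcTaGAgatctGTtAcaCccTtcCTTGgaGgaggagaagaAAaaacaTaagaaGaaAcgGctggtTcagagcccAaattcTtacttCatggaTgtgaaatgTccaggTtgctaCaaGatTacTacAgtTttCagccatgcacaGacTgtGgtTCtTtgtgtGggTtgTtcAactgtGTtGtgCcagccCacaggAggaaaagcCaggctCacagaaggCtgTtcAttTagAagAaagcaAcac

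The FPKM of Rps27l was 57.5 ± 0.565% of that of Rps27 in PLLA/ZnO@Col +US, against 58.9 ± 11.9% in PLLA/ZnO@Col -US. It was 89.7 ± 30.5% in PLLA/ZnO +US and 57.8 ± 4.27% in PLLA/ZnO -US, and 60.8 ± 14.5% in PLLA +US and 61.2 ± 6.61% in PLLA -US (SD, n = 3 each). The value above 100% came from library 1 of PLLA/ZnO +US, where Rps27 had 68.9 FPKM, its lowest in any library, and Rps27l 85.2 FPKM. Rps27 had 68.9, 131 and 176 FPKM in that group. Rpl39l and Rpl3l, which in mouse belong mainly to testis and to striated muscle, were near 0 as given above.

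The paralogs with a name outside the rule were set against their partners, and no difference in share was tested. These shares of FPKM also depend on the implied length, which was 7.12 times the principal transcript for Rpl22. Rpl22l1, whose messenger RNA is repressed by Rpl22 protein in mouse cells, was at 16.2 ± 1.84% of Rpl22 in PLLA/ZnO@Col +US, against 26.5 ± 2.14% in PLLA/ZnO +US. Its FPKM averaged 7.82 ± 1.07 in PLLA/ZnO@Col +US, against 14.7 ± 2.22 in PLLA/ZnO +US (SD, n = 3 each), a log2 fold change of -0.88 (SE 0.28, edgeR adjusted p = 0.415). Without ultrasound it averaged 9.40 ± 3.84 FPKM in PLLA/ZnO@Col -US, against 15.7 ± 4.55 FPKM in PLLA/ZnO -US, a log2 fold change of -0.71 (edgeR adjusted p = 0.295), while Rpl22 itself averaged 55.5 FPKM in PLLA/ZnO@Col -US and 55.4 FPKM in PLLA/ZnO -US. Against PLLA, Rpl22l1 was higher with zinc oxide by 0.59 without ultrasound and 0.64 with it, neither past the test. Rpl7l1 was at 20.4 ± 2.11% of Rpl7 in PLLA/ZnO@Col +US, against 14.2 ± 3.75% in PLLA/ZnO +US, while its own level averaged 41.4 ± 3.38 FPKM in PLLA/ZnO@Col +US, against 46.5 ± 9.56 FPKM in PLLA/ZnO +US. Rpl36al stayed at 43.0% to 57.5% of Rpl36a in the 6 group means.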

How the data were processed

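RNA sequencing of MC3T3-E1 cells was analysed in 18 libraries, 3 in each of 6 groups taken from the titles and treatment labels. The submitters' processing notes name cutadapt 1.9, FastQC and the build GRCm38. Which programs aligned and counted the reads, whether strand was used and how shared reads were counted is not given in the sources used here. A single table was deposited by the authors, of whole-number counts per gene, not normalized, and of FPKM values, both named per the file headers. Overlapping and antisense genes may share reads.

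All 11936 genes with an FPKM of at least 1 in at least 3 libraries were fitted together with TMM-normalized counts and edgeR 4.0.16's quasi-likelihood F-test (R 4.3.3), with 1 mean per group, 12 residual degrees of freedom and a common biological coefficient of variation of 0.28. Tests were two-sided, with Benjamini-Hochberg adjustment over all genes of a comparison at 0.05. The scripts were tested on simulated data with 200 changed genes. Depth makes counting error small beside the spread between libraries for these genes, and no replicate pair agreed within counting noise (chi-square per degree of freedom 13.1 to 709).

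Alternatives were DESeq2 1.42.0, its size factors, totals without TMM, TMM without ribosomal protein and mitochondrial genes, limma 3.58.1 on log2(FPKM + 1) and log2(FPKM + 0.1), no filter, a mean FPKM of at least 5, only the groups compared, a block by replicate number and leaving out each library. Members summed with pseudogenes and a fit without 3 libraries were added after seeing the data. Same-numbered libraries deviated together with correlations over 0.1 in all 3 pairs for zinc oxide with ultrasound only (0.56, 0.55 and 0.73), of 7 comparisons. The labels do not say what a number shares, so it is not known whether the numbers are a pairing, and the block by number is an alternative only.

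Uniqueness was counted over stretches of 100 bases in GENCODE M21 transcripts, and promoter windows are from RefSeq. Members and lists were chosen with earlier results of these data known. Named members were those with the 3 highest and 3 lowest log2 fold changes of a comparison, the 5 highest and 5 lowest levels, the stalk proteins, paralogs and members with known further roles, and in other lists the gene with the smallest p; Rpl34, Rpl14, Rpl4, Rpl31 and others named for overlap, steadiness or pseudogenes were chosen after their values were seen. Results for some genes that this rule names are not reported here.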

Additional observations from a re-analysis of the deposited data

How the results depend on the processing

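No member was called by edgeR in any of the 7 comparisons under the other scalings, filters and leave-one-out fits. With DESeq2, 5 genes were called for ultrasound on PLLA/ZnO, 3 for ultrasound on PLLA/ZnO@Col, 1 and 2 for zinc oxide without and with ultrasound, 407 genes and 1 member for collagen without ultrasound, and 47 genes and 2 members for collagen with ultrasound. For collagen without ultrasound, limma on log2(FPKM + 0.1) called 1 gene and a mean FPKM of at least 5 gave 5. Without the 3 libraries with almost no Y-linked reads, ultrasound on PLLA/ZnO@Col had 2 members and 111 genes called and a median of 0.81, and collagen without ultrasound had 11 members and 166 genes called and a median of -0.89; Rplp1 was at -1.17 there instead of 0.15. The only PLLA/ZnO@Col -US library left in this fit was library 2, where the median member deviated by -0.73 on the log2 scale. In the removed libraries 1 and 3 of that group it deviated by -0.10 and 0.65. The part of this, and of the smaller number of samples, was not tested. With a mean FPKM of at least 5 the member median was -0.24 for collagen with ultrasound, -0.16 without it and 0.08 for ultrasound on PLLA, and with no filter it was 0.13 for ultrasound on PLLA/ZnO.

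Leaving out single libraries gave 0 to 1 genes for ultrasound on PLLA/ZnO and for zinc oxide with ultrasound, 0 to 38 for ultrasound on PLLA/ZnO@Col (38 without library 1 of PLLA/ZnO@Col +US) and 0 to 1039 for collagen without ultrasound (1039 without library 2 and 18 without library 3 of PLLA/ZnO@Col -US). Medians ranged from -0.35 to 0.44 for ultrasound on PLLA/ZnO@Col and from -0.51 to 0.22 for collagen without ultrasound. With the replicate block no gene was called in any comparison and the medians were 0.13, 0.04 and 0.00 for ultrasound on the 3 membranes, 0.34 and 0.27 for zinc oxide and -0.13 and -0.13 for collagen, so the block changed no call. Correlations of same-numbered libraries were -0.49 to 0.73 over 21 pairs. The spread between libraries, with a pooled SD of 0.317 for the member median over all 6 groups, limits these values more than depth.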
